A study of Mus musculus with 95 samples.

Results

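The genes described here encode 9 proteins known to associate with PCGF6: Mga, Max, E2f6, Tfdp1, L3mbtl2, Cbx3, Wdr5, Hdac1 and Hdac2. They were taken as a list by name, not by any measured value, out of 23377 genes in the deposited count table. All 9 were in that table, and all 9 were among the 15464 genes that passed the filter on low counts. Their mRNA was measured by RNA-seq, and protein binding and histone marks at their starts by ChIP-seq, in which DNA bound by a protein is sequenced and enriched stretches are called as peaks.

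PCGF6 is 1 of the PCGF proteins that pair with RING1A or RING1B, the catalytic subunits of Polycomb repressive complex 1, which place ubiquitin on histone H2A. The PCGF6-containing form differs from the others by its DNA-binding subunits. MGA and MAX form a heterodimer that reads E-box sequences, MGA also has a T-box domain, and E2F6 with its partner DP1 (the product of Tfdp1) reads E2F sites. In embryonic stem cells this form of the complex is known for keeping germline genes silent.

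The series held 95 samples of E14 mouse embryonic stem cells, 14 of RNA-seq and 81 of ChIP-seq, and compared lines that lack different PCGF proteins. All lines were grown on gelatin in serum with leukaemia inhibitory factor plus inhibitors of GSK3β and MEK1/2. RNA-seq covered 7 groups of 2 libraries: wild-type, Pcgf1-/-, Pcgf2/4-/-, Pcgf3/5-/-, Pcgf6-/-, Pcgf1/2/4-/- and Pcgf3/5/6-/-. Knockouts were made by transfecting Cas9 and guide RNAs and picking clones, lines lacking several genes were edited in steps, and the count table gives 1 clone name for each knockout group. The authors' deposited table of fold changes names another Pcgf6-/- clone than the count table, and the labels used here do not say which clone gave the ChIP samples. ChIP-seq used these lines and further sets, of which 2 are described here, while samples labelled Ezh1/2-/-, shUsf1 and shUsf2 are not. The line labelled Ring1a-/-_Ring1bfl lacks Ring1a and carries a conditional Ring1b with an inducible Cre, and Ring1a/b-/- lacks both. Lentiviral short hairpins gave the samples labelled shCtr, shMGA, shMGAdHLH, shE2F6 and shE2F6-MGAdHLH, selected with puromycin and grown on before harvest. The labels do not explain shMGAdHLH, which is used here as given. For the antibodies used here each line had 1 peak list, except 2 lists in Pcgf1/2/4-/- for RING1B and for ubiquitinated H2A.

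Library totals ran from 2147968 to 7848161 counts, with 6827571 and 6967931 in wild-type and 2147968 and 2471117 in Pcgf1/2/4-/-. All 10 embryonic stem cell markers examined (Pou5f1, Nanog, Sox2, Zfp42, Esrrb, Klf4, Tfcp2l1, Dppa5a, Utf1 and Lin28a) had counts in every group. Pcgf6 mRNA was at 36.2 and 34.3 CPM (read counts scaled to TMM-adjusted library totals) in wild-type, and both Pcgf6-/- libraries had 0 reads of it. In the libraries labelled Pcgf3/5/6-/- it had 42.0 and 37.2 CPM, so its mRNA level does not check that label. Nothing in the labels says that the 2 libraries of a group came from separate cultures, so p-values measure only the spread between these libraries. In bulk RNA, fewer cells of a type and less RNA per cell cannot be told apart. The 6 knockouts were compared with the same 2 wild-type libraries, so those comparisons are not independent of each other.

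Of the 9 starts, 4 carried a PCGF6 peak in wild-type cells, those of Mga, E2f6, Tfdp1 and Hdac2. A start counted as bound when a peak lay within 2.5 kb of any annotated transcript start, and 7.47% of 14218 tested genes with 1 gene model were bound by this rule. With −log10 q of at least 10, the Tfdp1 peak was lost and 3 remained. The sequences under the 4 peaks, which the calls of binding did not use, are shown first. They were searched for 3 motifs of the complex's DNA-binding subunits, and those of Hdac2, Tfdp1 and E2f6 held at least 1. The share of all windows with at least 1 of the 3 was not computed, and the share for each motif is given below. All coordinates are in the mouse build NCBIM37, with GENCODE M1 gene models and sequences on the strand of the gene, 5′ to 3′.

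Hdac2 (ENSMUSG00000019777.9, chr10:36694350-36721695, plus strand) had its PCGF6 summit 398 bp upstream of its 5′ end, outside annotated exons. The 300 bases around the summit, chr10:36693802-36694101, are printed with the E-box letters CACGTG in capitals. The first match lay 78 bp before and the second 18 bp after the summit.
Hdac2: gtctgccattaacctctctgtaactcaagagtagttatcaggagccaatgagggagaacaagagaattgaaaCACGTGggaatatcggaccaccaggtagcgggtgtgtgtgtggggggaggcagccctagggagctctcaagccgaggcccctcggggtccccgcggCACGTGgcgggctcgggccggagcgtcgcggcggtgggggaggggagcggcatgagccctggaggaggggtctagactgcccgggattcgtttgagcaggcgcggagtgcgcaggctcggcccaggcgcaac

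Tfdp1 (ENSMUSG00000038482.9, chr8:13338751-13378395, plus strand) had its summit 347 bp upstream of its 5′ end, also outside exons. Its 300 bases, chr8:13338254-13338553, held 2 E-boxes and 1 match to the T-box core AGGTGT, all in capitals.
Tfdp1: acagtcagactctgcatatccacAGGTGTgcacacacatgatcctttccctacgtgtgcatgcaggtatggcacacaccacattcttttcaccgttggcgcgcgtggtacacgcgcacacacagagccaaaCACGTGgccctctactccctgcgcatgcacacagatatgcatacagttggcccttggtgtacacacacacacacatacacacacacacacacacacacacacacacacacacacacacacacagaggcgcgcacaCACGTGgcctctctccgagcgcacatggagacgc

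E2f6 (ENSMUSG00000057469.6, chr12:16817771-16833549, plus strand) had its summit 150 bp inside the gene. Its window held 2 matches to the E2F core TCCCGC, read here on the other strand as GCGGGA, both within an annotated untranslated exon. The matches lay 55 and 83 bp after the summit, and each is shown in capitals in 30 bases, at chr12:16817964-16817993 and chr12:16817992-16818021.
E2f6 core 1: cctccggggaagGCGGGAgggcgcgtgggg
E2f6 core 2: ggcgcgaggggcGCGGGAcagcatgagtca

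Mga (ENSMUSG00000033943.9, chr2:119722964-119795317, plus strand) had its summit 255 bp inside the gene, outside its annotated exons. None of the 3 motifs was found in its 300-base window on either strand. The central 120 bases, chr2:119723159-119723278, are shown for comparison, with no capitals.
Mga: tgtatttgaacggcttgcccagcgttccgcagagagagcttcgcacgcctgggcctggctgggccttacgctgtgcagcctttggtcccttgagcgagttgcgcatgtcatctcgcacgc

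Both strands were searched for all 3 motifs, which do not overlap one another in these windows. The E-box was present in 25.9% of 1868 windows of 300 bases around wild-type PCGF6 summits and in 9.04% of windows of that length centred on 14218 gene starts. The E2F core was present in 32.2% and 35.9%, and the T-box core in 16.2% and 11.1%. A match says only that these letters are present.

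The other 5 genes had no wild-type PCGF6 peak near their starts. The nearest one lay 25.2 kb from Wdr5, 50.8 kb from Hdac1, 147.2 kb from L3mbtl2, 532.9 kb from Cbx3 and 556.9 kb from Max. Their gene models are Max (ENSMUSG00000059436.5, chr12:78038256-78063235, minus strand), L3mbtl2 (ENSMUSG00000022394.8, chr15:81494319-81518745, plus strand), Cbx3 (ENSMUSG00000029836.9, chr6:51420359-51433703, plus strand), Wdr5 (ENSMUSG00000026917.9, chr2:27370677-27392055, plus strand) and Hdac1 (ENSMUSG00000028800.9, chr4:129193348-129219957, minus strand). L3mbtl2 overlaps Chadl on the opposite strand, and the Cbx3 sequence has an annotated pseudogene, so counts for both are uncertain where the authors' counting could split or mix reads.

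Per kilobase of exon, the wild-type mean levels of the 9 genes ran from 5.40 CPM per kb for E2f6 to 96.9 for Wdr5. Hdac1 followed at 78.6, Cbx3 at 65.8, Max at 58.1, Tfdp1 at 53.7, L3mbtl2 at 45.3, Hdac2 at 20.4 and Mga at 14.4 CPM per kb.

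The plot of levels by library shows all 9 genes in all 14 libraries, and the plot of fold changes shows each knockout against wild-type.

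**Figure D1:**
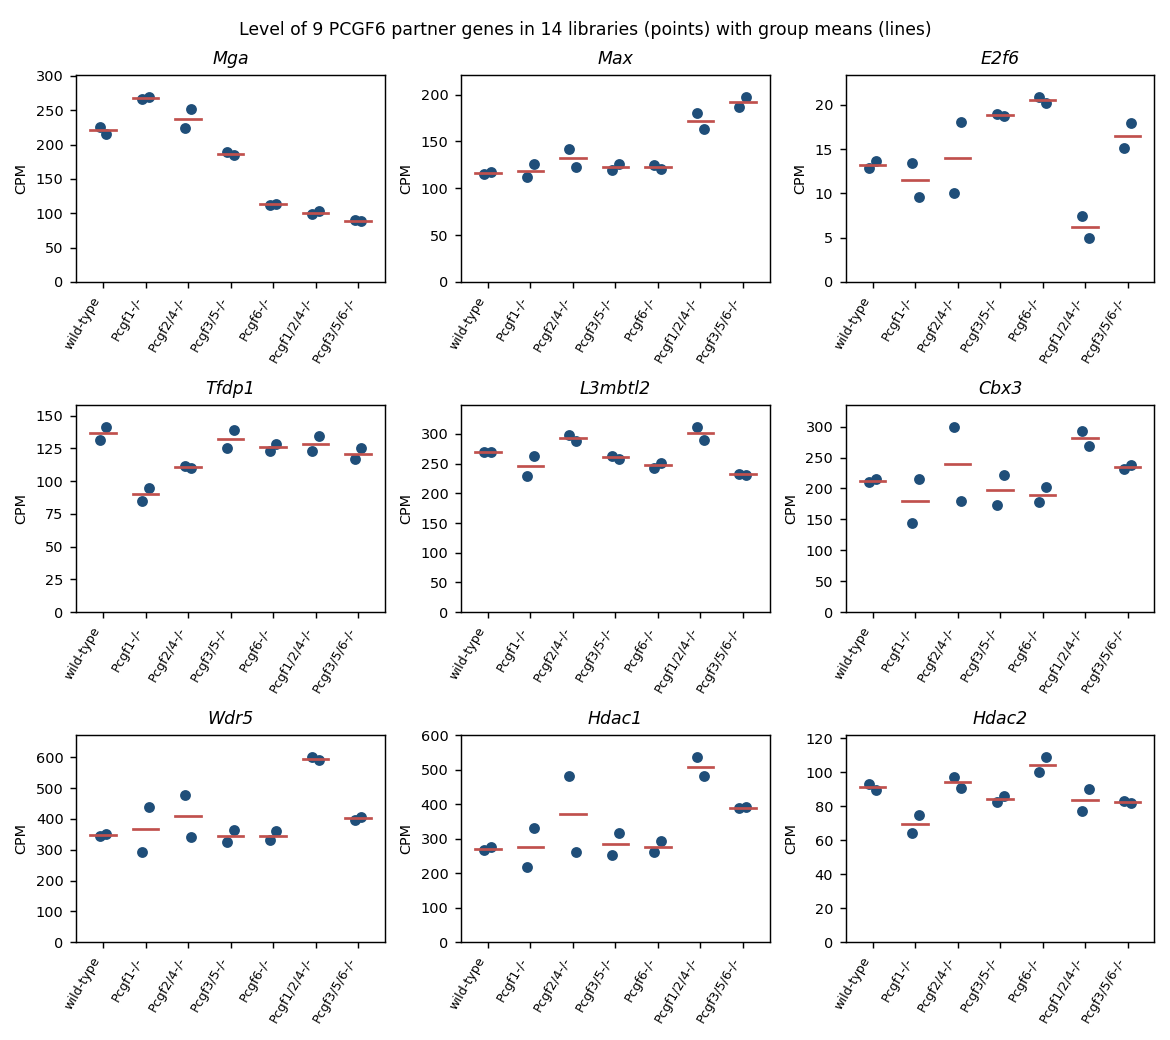
Level of each of the 9 genes in CPM (vertical axis, from 0) in the 7 groups (horizontal axis), with 1 point per library and a line at the group mean. Mga is at 88.9 to 114.0 CPM in Pcgf6-/- and both triple knockouts, below the other 8 libraries, and Max is above all other libraries in both triple knockouts.

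Mga, the large scaffold and DNA-binding subunit, was the gene with the clearest change. Its level was 226.3 and 215.8 CPM in wild-type, 112.2 and 114.0 in Pcgf6-/-, 98.8 and 103.4 in Pcgf1/2/4-/-, and 90.0 and 88.9 in Pcgf3/5/6-/-. It was 267.0 and 269.8 CPM in Pcgf1-/-, 223.7 and 251.9 in Pcgf2/4-/-, and 189.3 and 184.8 in Pcgf3/5-/-. The 6 libraries of Pcgf6-/- and the triple knockouts were all lower than the other 8, and the 3 groups did not overlap one another. Only Pcgf2/4-/- and wild-type, which are neighbours in the order, overlapped.

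Mga fell by 0.97 ± 0.12 (log2, SE) in Pcgf6-/- against wild-type (edgeR adjusted p = 1.43e-05). It fell by 1.13 ± 0.13 in Pcgf1/2/4-/- (edgeR adjusted p = 1.96e-05) and by 1.30 ± 0.12 in Pcgf3/5/6-/- (edgeR adjusted p = 1.25e-06). These 3 calls held under every alternative tried. The label Pcgf1/2/4-/- does not name Pcgf6, whose mRNA had a mean of 25.2 CPM there against 35.3 in wild-type. In the other 3 lines Mga did not pass the test, at 0.28 ± 0.12 in Pcgf1-/- (edgeR adjusted p = 0.087), 0.11 ± 0.12 in Pcgf2/4-/- and -0.24 ± 0.12 in Pcgf3/5-/-. The Pcgf1-/- value passed with 3 alternatives, among them DESeq2 at 0.34 (adjusted p = 0.00359).

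Mga in Pcgf6-/- was also compared with the mean of the other 3 single or double knockouts, a contrast in which wild-type drops out. Each knockout group had 1 clone name, so clone and genotype cannot be told apart. Mga was lower in Pcgf6-/- by this contrast, at -1.02 ± 0.10 (log2, SE; edgeR adjusted p = 1.2e-06). Pcgf3/5/6-/- was lower than Pcgf3/5-/- by -1.06 ± 0.12 (edgeR adjusted p = 7.72e-06). Against Pcgf6-/- the triple knockout differed by -0.34 ± 0.12 (edgeR adjusted p = 0.038), a call lost when any of the 4 libraries was left out (adjusted p 0.119 to 0.146). It was also lost with the replicate number as a block (adjusted p = 0.0558).

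Max, the small partner of MGA and of MYC, rose in the triple knockouts. Its level was 115.0 and 117.9 CPM in wild-type, 180.5 and 163.0 in Pcgf1/2/4-/-, and 187.0 and 197.7 in Pcgf3/5/6-/-. The remaining libraries ran from 111.9 to 142.0 CPM, so the 4 libraries of the triple knockouts stood above the other 10. The order of the other 5 groups could not be read, since each overlapped its neighbour.

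The increase in Max was 0.56 ± 0.12 (log2, SE) in Pcgf1/2/4-/- (edgeR adjusted p = 0.00356) and 0.72 ± 0.12 in Pcgf3/5/6-/- (edgeR adjusted p = 0.000191). In Pcgf6-/- it was 0.08 ± 0.12 (edgeR adjusted p = 0.662). Pcgf3/5/6-/- exceeded Pcgf6-/- by 0.65 ± 0.12 (edgeR adjusted p = 0.00068) and Pcgf3/5-/- by 0.65 ± 0.12 (edgeR adjusted p = 0.000486). The 4 triple-knockout libraries and the first of Pcgf2/4-/- were the 5 shallowest, and within Pcgf2/4-/- the shallower library had 142.0 CPM of Max against 122.4. The part of depth in the Max result was not tested beyond the alternative scalings, under which all 4 calls held. Tested against a log2 change of 0.5, the call in Pcgf3/5/6-/- against wild-type held (edgeR adjusted p = 0.037) and the other 3 were lost.

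**Figure D2:**
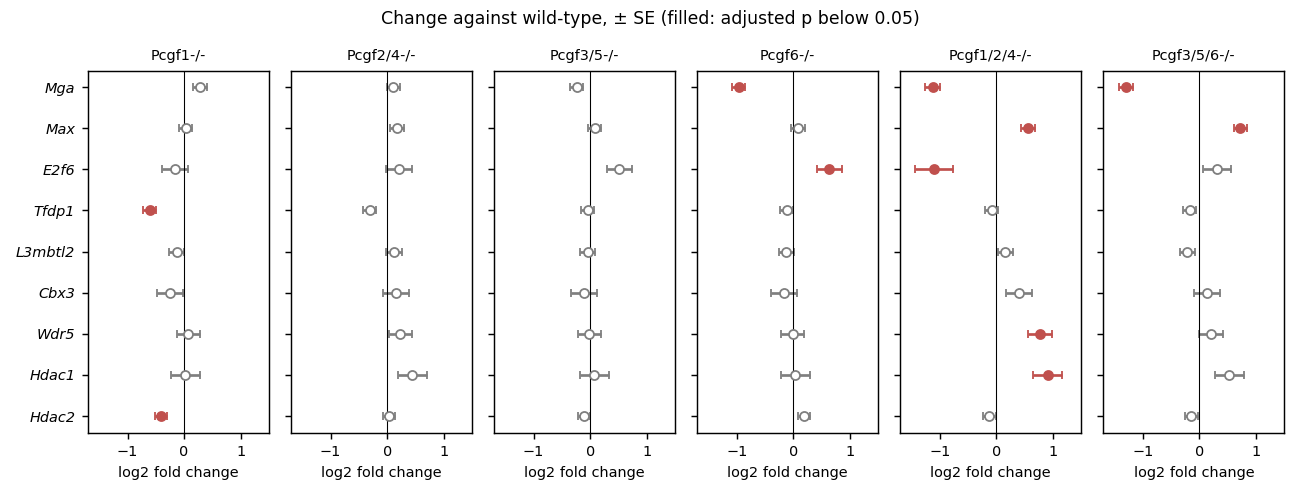
Log2 fold change of each gene (rows) in 6 knockouts against wild-type (panels), with bars of 1 SE, filled where the edgeR adjusted p was below 0.05. Mga lies between -1.30 and -0.97 in Pcgf6-/-, Pcgf1/2/4-/- and Pcgf3/5/6-/-, while E2f6 lies on opposite sides of 0 in Pcgf6-/- (0.64) and Pcgf1/2/4-/- (-1.11).

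E2f6, which supplies the E2F DNA-binding domain without an activation domain, had the lowest level of the 9 and the least even changes. It was at 12.8 and 13.6 CPM in wild-type, 20.9 and 20.2 in Pcgf6-/-, 19.0 and 18.8 in Pcgf3/5-/-, and 15.2 and 17.9 in Pcgf3/5/6-/-. It was at 13.4 and 9.6 CPM in Pcgf1-/-, 10.1 and 18.0 in Pcgf2/4-/-, and 7.5 and 5.0 in Pcgf1/2/4-/-, where the values rest on 14 and 11 reads. Pcgf6-/- was the highest group and Pcgf1/2/4-/- the lowest, and neither overlapped its neighbour, while wild-type overlapped Pcgf2/4-/- and Pcgf1-/-.

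E2f6 rose by 0.64 ± 0.22 (log2, SE) in Pcgf6-/- (edgeR adjusted p = 0.0258), but the call was lost when any 1 of the 4 libraries was left out (adjusted p 0.0815 to 0.135). It fell by 1.11 ± 0.34 in Pcgf1/2/4-/- (edgeR adjusted p = 0.0198), a call lost without the second wild-type library or without either Pcgf1/2/4-/- library. The Pcgf1/2/4-/- libraries were the shallowest. E2f6 was higher in the shallower library in 2 of 7 groups, with ratios of the shallower to the deeper library from 0.558 to 1.505. The part of depth in the fall of E2f6 was not tested beyond the alternative scalings. Against the mean of the other 3 single or double knockouts, Pcgf6-/- was higher by 0.45 ± 0.17 (edgeR adjusted p = 0.0394). That call was lost with DESeq2 (adjusted p = 0.0548), with the compared groups fitted alone (0.214), without the filter on low counts (0.0604), with the replicate number as a block (0.0528) and in 6 of 8 fits with 1 library left out (adjusted p 0.00148 to 0.192 over the 8).

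Tfdp1, which encodes the DP1 partner of E2F proteins, fell in Pcgf1-/- cells. Its level was 131.7 and 141.4 CPM in wild-type, 84.6 and 95.1 in Pcgf1-/-, 111.4 and 109.8 in Pcgf2/4-/-, and 123.2 and 128.7 in Pcgf6-/-. Pcgf3/5-/- was at 125.3 and 139.2, Pcgf1/2/4-/- at 122.8 and 134.6, and Pcgf3/5/6-/- at 116.6 and 125.4 CPM. The 2 Pcgf1-/- libraries were the lowest of the 14 and those of Pcgf2/4-/- came next. The decrease in Pcgf1-/- was -0.61 ± 0.11 (log2, SE; edgeR adjusted p = 0.00118) and held under every alternative except the test against a log2 change of 0.5. The value in Pcgf2/4-/- was -0.30 ± 0.12 (edgeR adjusted p = 0.0762). In Pcgf6-/-, where its PCGF6 peak was absent, it was -0.12 ± 0.11 (edgeR adjusted p = 0.447).

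Hdac2, 1 of the pair of histone deacetylases shared with the SIN3, NuRD and CoREST complexes, carried the strongest of the PCGF6 peaks. Its mRNA ran from 63.9 to 108.8 CPM over the libraries. Its level was 93.0 and 89.6 CPM in wild-type, 63.9 and 75.0 in Pcgf1-/-, 100.0 and 108.8 in Pcgf6-/-, and 82.8 and 82.1 in Pcgf3/5/6-/-. The other 3 groups ran from 77.4 to 97.2 CPM. Pcgf1-/- was the lowest group and Pcgf6-/- the highest, and neither overlapped its neighbour.

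Hdac2 fell by 0.40 ± 0.11 (log2, SE) in Pcgf1-/- (edgeR adjusted p = 0.0116), a call lost without the first Pcgf1-/- library or either wild-type library. In Pcgf6-/- the change against wild-type was 0.19 ± 0.11 (edgeR adjusted p = 0.16). Against the mean of the other 3 single or double knockouts, Pcgf6-/- was higher by 0.35 ± 0.09 (edgeR adjusted p = 0.00287), a call lost without the second Pcgf6-/- library (adjusted p = 0.0718). Pcgf3/5/6-/- was lower than Pcgf6-/- by -0.34 ± 0.11 (edgeR adjusted p = 0.0228). That call was lost with loess offsets (adjusted p = 0.1) and in 3 of the 4 fits that left out 1 library (adjusted p 0.0423 to 0.145 over the 4).

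Wdr5, the WD-repeat protein shared with the H3K4 methyltransferases, Hdac1, and Cbx3, the HP1γ protein that reads methylated H3K9, moved together across libraries. Wdr5 was at 345 and 352 CPM in wild-type, 600 and 590 in Pcgf1/2/4-/-, and 330 to 407 in Pcgf6-/- and Pcgf3/5/6-/-. Hdac1 was at 266 and 276 CPM in wild-type, 536 and 481 in Pcgf1/2/4-/-, and 390 and 391 in Pcgf3/5/6-/-. Both genes were higher in the 2 Pcgf1/2/4-/- libraries than in wild-type, with no overlap.

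Wdr5 rose by 0.77 ± 0.21 (log2, SE; edgeR adjusted p = 0.0106) and Hdac1 by 0.91 ± 0.26 (edgeR adjusted p = 0.0142) in Pcgf1/2/4-/-. With loess offsets, which scale each library along the abundance of its genes, Wdr5 was at 0.14 (adjusted p = 0.19). Both calls were lost without either wild-type library, and that of Hdac1 also without the first Pcgf1/2/4-/- library. Cbx3 was at 210 and 215 CPM in wild-type and 293 and 269 in Pcgf1/2/4-/-, a change of 0.40 ± 0.23 (edgeR adjusted p = 0.187), and passed the test in none of the 9 comparisons.

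The 3 genes also differed between libraries of 1 group. In 6 of 7 groups each was higher in the shallower library, up to 1.5-fold for Wdr5, 1.85-fold for Hdac1 and 1.66-fold for Cbx3. In Pcgf2/4-/-, the library of 2764111 counts had 481 CPM of Hdac1 and that of 7547984 counts had 260. Over the 14 libraries, which share the depth differences, Pearson's r was 0.945 between Wdr5 and Hdac1, 0.944 between Cbx3 and Hdac1 and 0.885 between Cbx3 and Wdr5. The Pcgf1/2/4-/- libraries were the shallowest, and the part of depth in their Wdr5 and Hdac1 values was not tested beyond the alternative scalings.

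**Figure D3:**
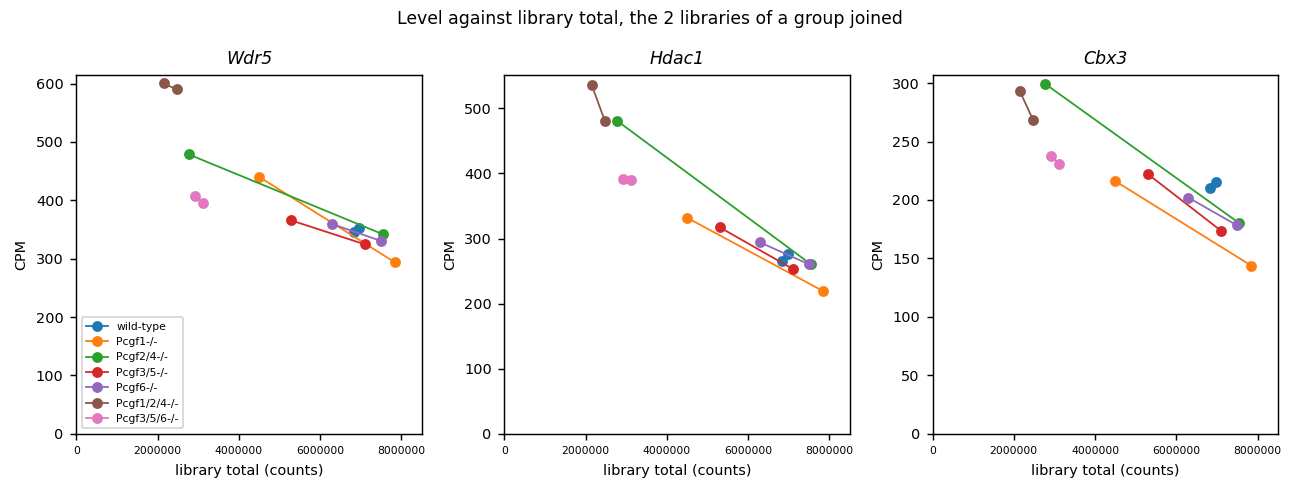
Level of Wdr5, Hdac1 and Cbx3 in CPM (vertical axis, from 0) against library total in counts (horizontal axis), with the 2 libraries of a group joined by a line. In 6 of 7 groups the shallower library is the higher one for each gene, and the Pcgf1/2/4-/- libraries, at 2147968 and 2471117 counts, lie at the upper left.

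L3mbtl2, an MBT-domain protein, was at 269 and 270 CPM in wild-type and within 229 to 312 CPM elsewhere, and passed the test in none of the 9 comparisons. Its lowest group mean was 232 ± 1.2 CPM (SD, n = 2) in Pcgf3/5/6-/- and its highest 301 ± 15.5 in Pcgf1/2/4-/-.

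Counted over the list, 2 of the 9 genes changed in Pcgf1-/- (both lower), where 32.3% of all tested genes changed. In Pcgf6-/- 2 changed, 1 in each direction, beside 46.5% of all genes. In Pcgf1/2/4-/- 5 changed, 3 higher and 2 lower, beside 37.0%, and in Pcgf3/5/6-/- 2 changed, 1 in each direction, beside 53.3%.

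None of the 9 passed the test in Pcgf2/4-/- or in Pcgf3/5-/-, beside 21.6% of all genes in each, with edgeR or with DESeq2. At an unadjusted p under 0.05 edgeR gave 1 gene in each, Tfdp1 in Pcgf2/4-/- and E2f6 in Pcgf3/5-/-. Against Pcgf6-/-, Pcgf3/5/6-/- had 3 genes changed beside 46.0%, and against Pcgf3/5-/- 2 beside 51.8%. Pcgf6-/- against the mean of the other 3 had 3 changed beside 54.5%. With only the compared groups in the fit, the counts were 4 of 9 in Pcgf6-/-, 7 in Pcgf1/2/4-/-, 7 in Pcgf3/5/6-/- and 6 for Pcgf3/5/6-/- against Pcgf6-/-. All genes called in those fits numbered 9749, 8278, 10654 and 9568. In the fit of all 14 libraries they numbered 7185, 5717, 8241 and 7109 of 15464, so calls rose over all genes as well. Leaving out 1 library at a time gave 2 to 4 in Pcgf1/2/4-/-. The median log2 fold change of the 9 genes in Pcgf6-/- was -0.01 and that of all genes 0.03. In Pcgf1/2/4-/- the medians were 0.16 and -0.11.

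Markers of other cell types differed between lines, also in lines where neither Mga nor Max passed the test. The summed level of 6 primitive endoderm markers was 1.71 and 1.97 CPM in wild-type, 48.0 and 54.7 in Pcgf6-/- and 55.0 and 64.9 in Pcgf3/5/6-/-. In wild-type Gata6, Gata4, Sox17, Dab2 and Foxa2 were at 0, and in both those knockouts all 6 had counts. The 5 trophoblast markers summed to between 217 and 230 CPM in wild-type, 415 and 436 in Pcgf6-/- and 1175 and 1197 in Pcgf3/5/6-/-, and the 5 two-cell-like markers to between 99.9 and 102, 425 and 466, and 271 and 278. In Pcgf1/2/4-/- the primitive endoderm sum was 13.4 to 15.8 CPM and the two-cell-like sum 13.9 to 14.5, and the trophoblast sum was 357 to 410. The 4 mesendoderm markers summed to between 50.1 and 55.5 CPM in wild-type and to 7.35 in both Pcgf6-/- libraries, with Gsc at 0 there. Their sum was 18.4 to 23.9 CPM in Pcgf2/4-/- and 18.4 to 23.7 in Pcgf3/5-/-. The two-cell-like sum was 3.66 to 10.8 CPM in Pcgf1-/- and 13.4 to 14.4 in Pcgf3/5-/-. The embryonic stem cell markers summed to between 2368 and 2375 CPM in wild-type, 1970 and 2097 in Pcgf6-/- and 3681 and 3892 in Pcgf1/2/4-/-. They differed within Pcgf2/4-/- as well, at 2405 and 3681 CPM. The 5 neural markers summed to 82.8 and 84.8 CPM in wild-type, 59.75 and 68.6 in Pcgf6-/-, 169 and 172 in Pcgf3/5/6-/- and 9.2 and 15.3 in Pcgf2/4-/-. The 6 feeder fibroblast markers summed to 41.8 and 45.7 CPM in wild-type, 31.1 and 32.4 in Pcgf6-/- and 56.4 and 56.9 in Pcgf3/5/6-/-. The part of these markers in the Mga, Max, E2f6, Wdr5 and Hdac1 results was not tested.

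The genes whose log2 CPM followed each member most closely over the 14 libraries, among 11615 genes, are given as a description. For Mga they were AW549877 (r = 0.979) and Sall1 (0.976), for Max Mfge8 (0.976) and Sin3b (0.976), and for E2f6 Pik3cb (0.970) came first. For Tfdp1 they were Med11 (0.922) and Dll3 (0.922), for Hdac2 Riok2 (0.937) and Zcchc9 (0.919), and for L3mbtl2 Tor1aip2 (0.949) and Tmem222 (0.944). For Hdac1 they were Rpl11 (0.998) and Ptma (0.998), for Wdr5 Wdr77 (0.987) and Vps25 (0.983), and for Cbx3 Birc5 (0.986) and Dstn (0.984).

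The other genes of these pathways were read in Pcgf6-/- against wild-type, where 27.8% of all tested genes were higher and 18.6% lower. Of the remaining 6 genes of the complex, 2 rose and 2 fell, the latter including the deleted Pcgf6. Yaf2, a RING1-binding subunit, rose by 0.77 ± 0.13 (log2, SE; edgeR adjusted p = 0.000222). Ring1, encoding RING1A, was at 3.88 CPM against 7.50 and fell by 0.94 ± 0.27 (edgeR adjusted p = 0.0114). Rnf2, encoding RING1B, was at 268 ± 21.2 CPM (SD, n = 2) against 272 ± 2.95, and Rybp at 127 ± 1.91 against 111 ± 4.33, and neither passed the test.

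Of 10 genes of the MAX network, 4 rose and 2 fell. Myc was at 58.4 ± 0.10 CPM (SD, n = 2) against 114 ± 3.05 in wild-type and fell by 0.97 ± 0.11 (log2, SE; edgeR adjusted p = 8.56e-06). Mnt, a repressive MAX partner, fell by 1.24 ± 0.23 (edgeR adjusted p = 0.000449), and Mlxip, a glucose-responsive member of the network, rose by 0.90 ± 0.22 (edgeR adjusted p = 0.00358). Mxd4 also passed the test but was at only 0.97 CPM against 0.14. The list's median log2 change was 0.18.

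Of 15 E2F family genes and partners, 3 rose and 6 fell, with a median of -0.13. The pocket protein genes Rbl2 and Rb1 fell by 1.21 ± 0.21 (log2, SE; edgeR adjusted p = 0.000318) and by 1.02 ± 0.36 (edgeR adjusted p = 0.0333). E2f7, an atypical repressive E2F, rose by 0.88 ± 0.20 (edgeR adjusted p = 0.00244), and E2f2, an activating E2F, fell by 0.87 ± 0.28 (edgeR adjusted p = 0.0179).

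Of 18 genes of HDAC1/2 complexes, 1 rose and 4 fell, with a median of -0.04. The NuRD genes Mta1, Mbd3 and Mta3 fell by 1.35 ± 0.15 (log2, SE; edgeR adjusted p = 3.77e-06), by 0.55 ± 0.15 (edgeR adjusted p = 0.00783) and by 0.41 ± 0.15 (edgeR adjusted p = 0.0408). Rcor2, of the CoREST complex, fell by 1.05 ± 0.24 (edgeR adjusted p = 0.00246).

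Of 11 HP1 and MBT relatives, 10 were tested, and 2 rose and 2 fell, with a median of 0.05. Sfmbt2, an MBT-domain gene, was at 54.1 ± 3.46 CPM (SD, n = 2) against 11.1 ± 1.11 and rose by 2.29 ± 0.19 (log2, SE; edgeR adjusted p = 2.90e-07). Its relative Sfmbt1 rose by 0.59 ± 0.18 (edgeR adjusted p = 0.0175). Ehmt2, an H3K9 methyltransferase, fell by 0.79 ± 0.18 (edgeR adjusted p = 0.00252), and Cbx5, encoding HP1α, by 0.74 ± 0.14 (edgeR adjusted p = 0.000657). Of 12 WDR5 methyltransferase partners none passed the test in either direction, with a median of -0.20.

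PCGF6 binding at the 4 bound starts was read in each line. ChIP lists had 1 library each and were not tested, and the fold enrichments and q values are the authors' own for each peak, used within a list. In wild-type the Hdac2 peak had a fold enrichment of 43.29 and −log10 q of 144.9, which placed it at rank 3 of 1868 peaks. E2f6 followed at 19.39-fold (rank 91) and Mga at 10.85-fold (rank 186). The Tfdp1 peak, at 5.64-fold with −log10 q of 6.33, was at rank 1823, near the end of the list.

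The same 4 starts had peaks in Pcgf1-/- (beside 23.2% of all genes), in Pcgf2/4-/- (42.3%, and L3mbtl2 besides) and in Pcgf3/5-/- (7.05%). In Pcgf6-/- none of the 9 had one, while 2.12% of all genes did. Of the 1062 genes bound in wild-type, 96.1% were bound in Pcgf1-/-, 99.0% in Pcgf2/4-/- and 65.1% in Pcgf3/5-/-, and 15.3% had a peak in the Pcgf6-/- list. The Hdac2 peak was at rank 4 of 5528 in Pcgf1-/-, rank 1 of 12842 in Pcgf2/4-/- and rank 2 of 1571 in Pcgf3/5-/-.

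In the line labelled Ring1a-/-_Ring1bfl the same 4 starts were bound (8.17% of all genes), and in Ring1a/b-/- those of Mga, E2f6 and Hdac2 (6.67%). Of 1161 genes bound in the first line, 58.0% were bound in the second. Tfdp1, which lost its peak, had been at rank 1517 of 2222.

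In the other short-hairpin samples, the lists were much shorter than that of shCtr, which had 7451 peaks and 25.9% of all genes bound, the 4 starts included. In shMGA no member had a peak, and 468 peaks bound 1.01% of all genes. In shE2F6 the Mga and Hdac2 peaks were present but not those of E2f6 and Tfdp1 (557 peaks, 2.5% of genes). In shMGAdHLH it was the E2f6 and Hdac2 peaks that were present, and not those of Mga and Tfdp1 (733 peaks, 2.95%). In shE2F6-MGAdHLH no member had a peak (355 peaks, 1.13%).

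Of the 3689 genes bound in shCtr, 3.42% had a peak in shMGA, 9.54% in shE2F6, 9.73% in shMGAdHLH and 3.88% in shE2F6-MGAdHLH, against 0, 2, 2 and 0 of the 4 members. The members had strong peaks in shCtr, at ranks 1 (Hdac2), 100 (E2f6), 257 (Mga) and 424 (Tfdp1) of 7451. They were not compared with genes whose shCtr peaks were of like strength. Hdac2, whose window holds 2 E-boxes, was at rank 1 of 7451 in shCtr, rank 4 of 557 in shE2F6 and rank 243 of 733 in shMGAdHLH. E2f6, whose window holds 2 E2F cores and no E-box, was at rank 53 of 733 in shMGAdHLH and absent from shE2F6. Mga, with none of the 3 motifs, was at rank 105 of 557 in shE2F6. Tfdp1, whose window holds 2 E-boxes and no E2F core, had no peak in any of the 4 lists, shE2F6 included. Ranks in lists of different lengths do not measure a change. Whether the motifs bear on which peaks were present was not tested.

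**Figure D4:**
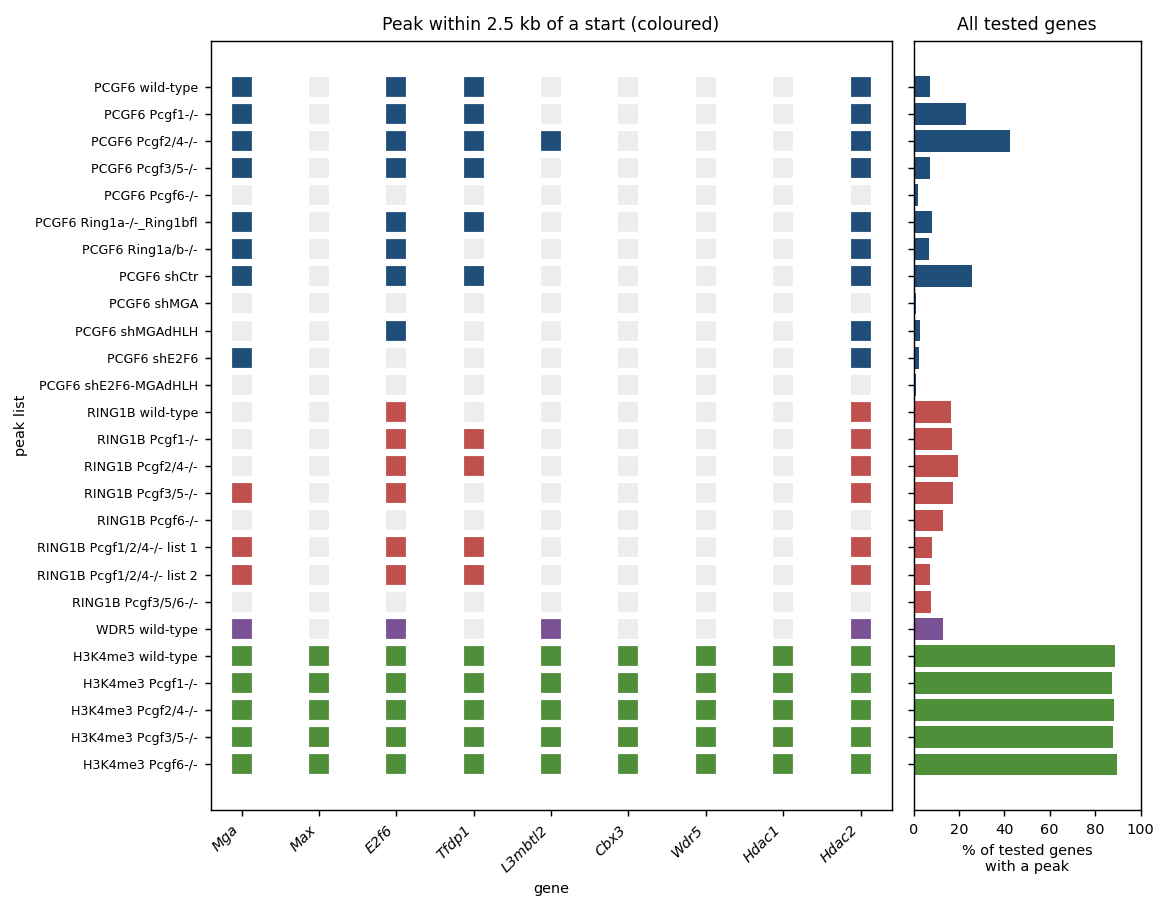
Left, each of the 9 genes (columns) in each peak list of PCGF6, RING1B, WDR5 and H3K4me3 (rows), coloured where a peak lies within 2.5 kb of a start. Right, the percent of 14218 tested genes with a peak in the same list. PCGF6 and RING1B squares are coloured for Mga, E2f6, Tfdp1 and Hdac2, and for L3mbtl2 in 1 PCGF6 list, and H3K4me3 squares for all 9 genes.

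RING1B, the catalytic partner, was at the starts of E2f6 and Hdac2 in wild-type (16.5% of all genes). Of the 1062 PCGF6-bound genes, 53.1% had a RING1B peak. RING1B was at E2f6, Tfdp1 and Hdac2 in Pcgf1-/- (17.1%) and Pcgf2/4-/- (19.7%), and at Mga, E2f6 and Hdac2 in Pcgf3/5-/- (17.2%). The Tfdp1 peaks of Pcgf1-/- (rank 5540 of 5696) and Pcgf2/4-/- (rank 4204 of 5607) were lost with −log10 q of at least 10. The E2f6 and Hdac2 peaks were thus present in all 4 of these lines.

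In Pcgf6-/- (13.0% of all genes) and in Pcgf3/5/6-/- (7.53%) none of the 9 starts had a RING1B peak. Of the 2345 genes with a RING1B peak in wild-type, 84.5% had one in Pcgf1-/-, 84.0% in Pcgf2/4-/- and 85.5% in Pcgf3/5-/-, while 69.0% had one in Pcgf6-/- and 42.6% in Pcgf3/5/6-/-, against 0 of 2 members in both. In Pcgf1/2/4-/- both lists had RING1B at Mga, E2f6, Tfdp1 and Hdac2 (8.21% and 7.47% of all genes). There Hdac2 was at rank 2 of 2051 and rank 3 of 1814. It was at rank 1048 of 5454 in wild-type, 1293 of 5696 in Pcgf1-/-, 2 of 5607 in Pcgf2/4-/- and 678 of 5586 in Pcgf3/5-/-.

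WDR5 was profiled in wild-type alone, and its peaks covered the starts of Mga, E2f6, L3mbtl2 and Hdac2 (13.0% of all genes). Of the PCGF6-bound genes 54.0% had a WDR5 peak, and 3 of the 4 bound members did. The fold enrichments were 20.55 at Hdac2, 19.85 at E2f6, 9.83 at Mga and 6.97 at L3mbtl2. The L3mbtl2 peak, at rank 1594 of 2176, was lost with −log10 q of at least 10. The start of Wdr5 itself had none.

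Summits of PCGF6, RING1B and WDR5 could be set side by side at Hdac2, Mga and E2f6. At Hdac2 the WDR5 summit was 376 bp upstream of the 5′ end and the PCGF6 summits at the strongest peak ran from 383 to 415 bp upstream in the 9 lists that had one, while those of RING1B ran from 382 to 438 bp upstream. At Mga the PCGF6 summits lay 255 to 382 bp inside the gene those of RING1B 352 to 430 bp inside, and the WDR5 summit 191 bp inside. At E2f6 the PCGF6 summits lay 43 to 275 bp inside, and those of RING1B 206 to 242 bp inside in 5 lists but 223 bp upstream in Pcgf3/5-/-, with the WDR5 summit 129 bp inside. Tfdp1 had no WDR5 peak.

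**Figure D5:**
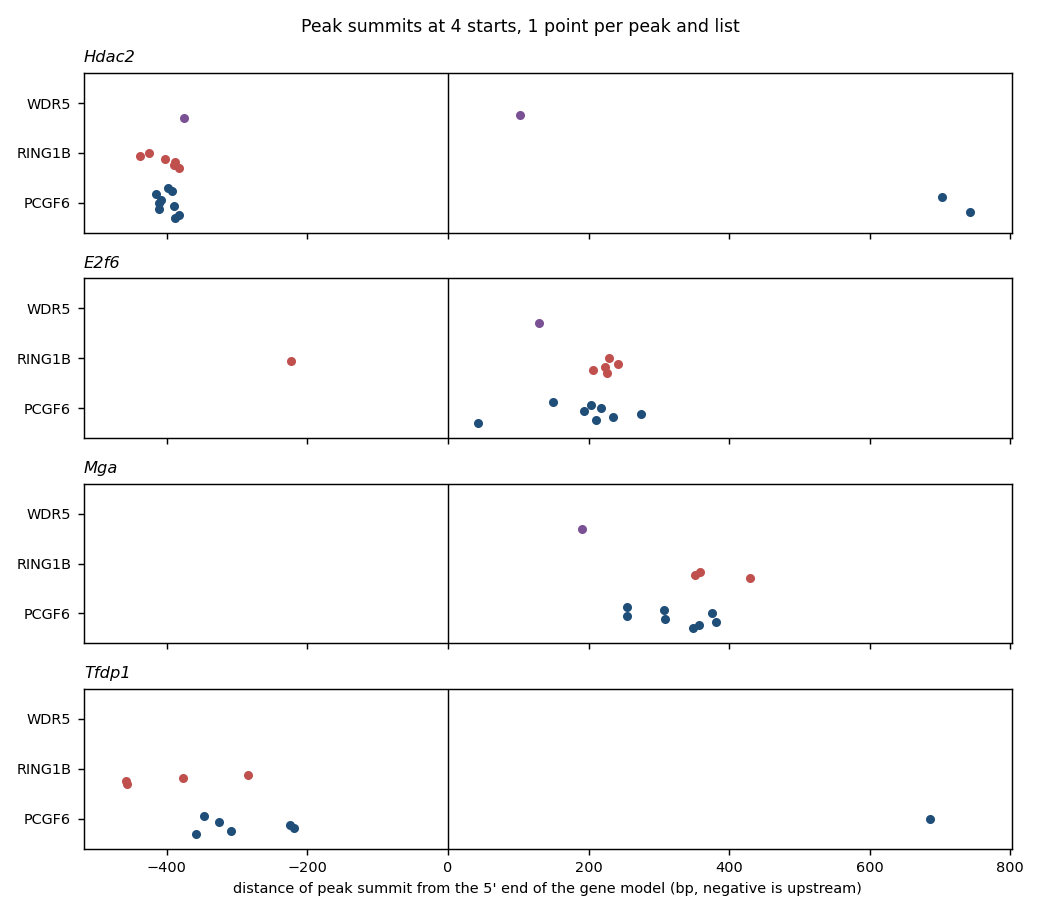
Distance of each peak summit from the 5′ end of the gene model in bp (horizontal axis, negative upstream) at 4 starts, with 1 point per peak and list for PCGF6, RING1B and WDR5 (rows). Summits at Hdac2 and Tfdp1 lie mostly upstream of the start and those of Mga and E2f6 mostly inside the gene.

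H3K4me3, the mark of active starts, was present at all 9 genes in all 5 lines profiled, beside 88.6% of all genes in wild-type, 87.6% in Pcgf1-/-, 88.3% in Pcgf2/4-/-, 87.7% in Pcgf3/5-/- and 89.8% in Pcgf6-/-. Within each list Mga and Tfdp1 had the lowest fold enrichment of the 9. In wild-type these were 32.22 for Mga and 22.38 for Tfdp1, and the other 7 ran from 57.58 for E2f6 to 80.01 for Hdac1. In Pcgf6-/- they were 19.34 and 27.85, and the others ran from 55.16 for L3mbtl2 to 88.4 for Hdac2.

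H3K36me3, a mark of transcribed gene bodies, was counted within 2.5 kb of any annotated transcript start, including those inside the gene. By this rule 7 of the 9 genes had a peak in wild-type (38.2% of all genes), all but E2f6 and Tfdp1. All 9 had one in Pcgf1-/- (45.5%), Pcgf3/5-/- (45.9%) and Pcgf6-/- (45.3%), and 8, all but E2f6, in Pcgf2/4-/- (41.4%). Counted within 2.5 kb of the 5′ end of the gene model alone, only 2 had one in wild-type, Max and Cbx3 (21.3% of all genes). That count was 5 in Pcgf1-/- (30.3%) and Pcgf3/5-/- (30.6%), and 4 in Pcgf2/4-/- (26.9%) and Pcgf6-/- (30.2%).

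SUZ12, a subunit of Polycomb repressive complex 2, had a peak at E2f6 alone in wild-type (17.7% of all genes, 76.2% of which had one in Pcgf6-/-), Pcgf1-/- (16.3%), Pcgf2/4-/- (23.9%) and Pcgf3/5-/- (18.5%), and at no member in Pcgf6-/- (15.1%), Pcgf1/2/4-/- (13.6%) and Pcgf3/5/6-/- (13.4%). Ubiquitinated H2A, the product of RING1 activity, was at E2f6 and Hdac2 in wild-type (3.69% of all genes) and in both Pcgf1/2/4-/- lists (1.75% and 0.844%), and at no member in Pcgf6-/- (7.14%). It was at E2f6 in Pcgf1-/- (10.1%), at Mga, E2f6, Tfdp1 and Hdac2 in Pcgf2/4-/- (45.6%), at all 9 in Pcgf3/5-/- (79.8%), and at Max, E2f6 and Hdac2 in Pcgf3/5/6-/- (39.0%), lists that covered far more genes than that of wild-type. Of 524 genes with this mark in wild-type, 77.7% had it in Pcgf6-/-.

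USF1, a further E-box reader, had peaks at Max, Mga and Tfdp1 in wild-type (22.9% of all genes). At Max its summit lay 2 bp upstream of the 5′ end, with a fold enrichment of 31.49.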

How the data were processed

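Of the 95 samples, the 14 RNA-seq libraries and the peak lists of 81 ChIP-seq samples (80 lists) were used, grouped by the labels. The authors deposited raw read counts per gene symbol, log2 fold changes with adjusted p-values per knockout, and peaks with fold enrichment (a ratio over control) and −log10 q per the file headers. The submitters' processing notes name TopHat2 2.1.1, Bowtie 1.2.2, HTSeq 0.7.2, DESeq2 3.7 and MACS2 2.1.1 and build mm9, with no role given; use of strand is not given in the sources used here.

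Counts were tested with edgeR 4.0.16 (R 4.3.3): TMM, filterByExpr, 1 quasi-likelihood fit of 14 libraries and Benjamini-Hochberg adjustment over 15464 genes, threshold 0.05, in 9 comparisons. CPM values use TMM-scaled totals. DESeq2 1.42.0 was an alternative. The fit was tested on simulated data. Starts followed GENCODE M1, and peaks were used as deposited, 1 list per sample. Library totals limit precision for low genes such as E2f6. The members and gene lists were chosen with earlier results of these data known; all 9 members are named, with at most 4 genes per other list (core subunits and the largest changes in Pcgf6-/-). The authors' deposited table for Pcgf6-/- names another clone than the count table; in the authors' deposited table Mga had a log2 fold change of -0.93. One gene of like pattern is not reported here.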

Additional observations from a re-analysis of the deposited data

Results flagged for a closer look

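Some genes differed between knockout groups by a test of the difference itself. Between Pcgf6-/- and the mean of Pcgf1-/-, Pcgf2/4-/- and Pcgf3/5-/-, the log2 difference was -1.02 for Mga, 0.45 for E2f6 and 0.35 for Hdac2. Between Pcgf3/5/6-/- and Pcgf6-/- it was -0.34 for Mga, 0.65 for Max and -0.34 for Hdac2, and between Pcgf3/5/6-/- and Pcgf3/5-/- it was -1.06 for Mga and 0.65 for Max. All passed edgeR's adjusted threshold, and those of E2f6 and Hdac2, with Mga between Pcgf3/5/6-/- and Pcgf6-/-, did not hold under every alternative. Both Max differences and that of Mga between Pcgf3/5/6-/- and Pcgf6-/- were lost when tested against a log2 change of 0.5, while the other 2 Mga differences held (adjusted p = 8.29e-05 and 0.000304).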

How the results depend on the processing

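Over 28 fold changes recomputed 292 times, 245 kept their side of the threshold, 38 lost it, 9 gained it and none changed sign. Tested against a log2 change of 0.5, the members changed were 0 in Pcgf1-/- (2 in the chosen fit), 1 in Pcgf6-/- (2), 1 in Pcgf1/2/4-/- (5), 0 in Pcgf3/5/6-/- against Pcgf6-/- (3), 1 against Pcgf3/5-/- (2) and 1 in Pcgf6-/- against the mean of 3 lines (3). With loess offsets they were 1 in Pcgf2/4-/- (0), 1 in Pcgf3/5-/- (0) and 4 in Pcgf3/5/6-/- against Pcgf3/5-/- (2). With the compared groups fitted alone they were 4 in Pcgf6-/- (2), 7 in Pcgf3/5/6-/- (2) and 6 against Pcgf6-/- (3), in fits that also called more of all genes. Counts of members changed at these other settings are given without the share of all genes called, so they are not results about the members. Leaving out 1 library at a time gave 1 to 2 in Pcgf1-/-, 0 to 1 in Pcgf2/4-/-, 0 in Pcgf3/5-/-, 1 in Pcgf6-/-, 2 to 4 in Pcgf1/2/4-/-, 2 in Pcgf3/5/6-/-, 1 to 2 against Pcgf6-/-, 2 against Pcgf3/5-/- and 1 to 3 in Pcgf6-/- against the mean; the lone library of a group is then assumed to vary like the others. The cause was not tested. Deviations of same-numbered libraries correlated between -0.462 and 0.375 over 21 pairs of groups. Library totals also differ within groups, so these values do not settle whether the replicate numbers pair the libraries. With the replicate number as a block, 2 members changed in Pcgf3/5/6-/- against Pcgf6-/- and 2 in Pcgf6-/- against the mean, and the other counts kept their value. In Pcgf1/2/4-/- the median log2 change of all genes was -0.11 and 38.9% of called genes were higher, against 47.8% with RLE factors, 49.5% with loess offsets and 51.1% with DESeq2, which is also another test. Of 246 recounts of members with a peak, 12 differed from the chosen count and 4 of these by over 1.5 times, the latter all with −log10 q of at least 10, an alternative chosen after seeing the data: ubiquitinated H2A kept 1 member with wild-type cells and lost all, to 0, with Pcgf3/5/6-/- and with the second Pcgf1/2/4-/- list, and SUZ12 had 0 in Pcgf2/4-/-. The same threshold removed the Tfdp1 peak of PCGF6 in wild-type and in Ring1a-/-_Ring1bfl. It also removed the Tfdp1 peak of RING1B in Pcgf1-/- and Pcgf2/4-/- and the L3mbtl2 peak of WDR5. The depth of the ChIP libraries is unknown here, so absent peaks may lie below what was detectable.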
